A study of Homo sapiens with 16 samples.

Results

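Peaks from a PABPC1 RNA immunoprecipitation experiment were described for 8 human genes, DAB2IP, PIK3CD, SSH1, HIRA, SETD1A, B4GALT5, KIFC3 and REXO1. They were selected on the presence of peaks in the lists, because many neighbouring peaks along each gene were missing from pairs B and D, defined below, and present in pairs A and C. The loss of peaks in B and D is therefore how the genes were found and is given as a description, without a test. The cut-off used to pick them is not stated. A peak belonged to a gene when it lay on the gene's strand and overlapped its hg19 span by at least 1 bp. The 8 genes held 304 of 175749 peaks, and 82 of the 36802 regions made by joining peaks that overlapped on a strand across the lists.

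The data came from RNA immunoprecipitation and sequencing with an anti-Myc antibody in H1299 cells, a human lung carcinoma line. The line carried a stable transgene for Myc-tagged PABPC1, as the wild-type form (WT) or the K512R form, in which arginine replaces a lysine, and the antibody reads the tagged protein only. Sodium arsenite (AS), which causes oxidative stress, was used at 500 µM or left out. Of 16 samples, 8 had a peak list, in 4 pairs of replicates, and for 3 pairs the list's name disagrees with the sample record. The 8 samples without a list, not analysed here, are those titled K512R, so by the record every list used comes from WT cells and the lists of B and D come from input RNA. The record gives pair D as WT input RNA under AS, and the list names give K512R under AS. For pair B the record has WT input without AS, the names WT under AS. For pair C the record has the immunoprecipitate (IP) of AS-treated WT cells, the names K512R without AS. Pair A is WT without AS in both, and IP in the record. Which reading is right was not settled, so D against C and B against A compare input with IP if the record holds, and AS with no AS if the names hold. Nothing states whether replicates came from separate cultures, so their spread may be technical.

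PABPC1 is the main cytoplasmic poly(A)-binding protein. It coats the poly(A) tail of mature mRNA, contacts the translation initiation machinery and is found in stress granules, the bodies in which stalled mRNAs gather when translation is blocked, as under arsenite. The 8 genes belong to no single pathway. DAB2IP, a Ras GTPase-activating protein, PIK3CD, the delta catalytic subunit of phosphoinositide 3-kinase, and SSH1, a phosphatase that activates cofilin and so actin turnover, act in signalling. HIRA, a histone chaperone, and SETD1A, a histone lysine methyltransferase, act on chromatin. B4GALT5 is a Golgi galactosyltransferase, KIFC3 a minus-end-directed kinesin motor, and REXO1 is named for its likeness to RNA exonucleases.

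The spans ran from 27.4 kb (SETD1A) and 33.2 kb (REXO1) to 218 kb (DAB2IP), and the others covered 74.9 to 105 kb. The median length of the 20056 protein-coding genes in the RefSeq table of GRCh38.p14 was 24.1 kb, and the spans stood between percentiles 53.3 and 93.8 of those lengths. SETD1A and REXO1 were thus close to the middle of all genes, and the word long fits the other 6 better. The spans lie, in hg19, on chromosome 9 at 124329398 to 124547809 (DAB2IP, plus strand), 1 at 9711790 to 9789172 (PIK3CD, plus), 12 at 109176466 to 109251359 (SSH1, minus) and 22 at 19318221 to 19419219 (HIRA, minus). SETD1A lies on chromosome 16 at 30968615 to 30995985 (plus), and KIFC3 on the same chromosome at 57792129 to 57896957 (minus). B4GALT5 lies on chromosome 20 at 48249482 to 48330421 (minus), and REXO1 on chromosome 19 at 1815245 to 1848452 (minus). The lists hold no gene names and no hg19 annotation was used here, so exons, introns and UTRs were not assigned.

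No genome of the lists' build was at hand, so peak sequences are not shown. RefSeq (GRCh38.p14) gives windows before the gene start for 7 of the 8 genes, 12 windows in all. Windows of 250 bases before the outermost start are printed for SSH1, B4GALT5 and REXO1, since these genes had a peak region that reached the 5′ end of the hg19 span. They lie at chr12:108857584-108857833, chr20:49713879-49714128 and chr19:1848484-1848733, all on the minus strand, and are written 5′ to 3′. Capitals mark GGGCGG or its reverse complement CCGCCC, the GC box.
SSH1: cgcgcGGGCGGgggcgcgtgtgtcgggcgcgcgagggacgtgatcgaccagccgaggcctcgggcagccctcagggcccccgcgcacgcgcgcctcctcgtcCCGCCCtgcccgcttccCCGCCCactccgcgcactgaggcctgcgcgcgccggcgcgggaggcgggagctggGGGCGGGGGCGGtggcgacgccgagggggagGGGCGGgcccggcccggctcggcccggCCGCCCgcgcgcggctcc
B4GALT5: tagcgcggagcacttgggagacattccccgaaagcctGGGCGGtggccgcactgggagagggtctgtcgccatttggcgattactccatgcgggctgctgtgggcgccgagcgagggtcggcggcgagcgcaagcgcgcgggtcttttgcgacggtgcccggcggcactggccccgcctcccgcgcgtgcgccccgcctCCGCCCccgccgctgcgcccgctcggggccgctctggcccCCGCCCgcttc
REXO1: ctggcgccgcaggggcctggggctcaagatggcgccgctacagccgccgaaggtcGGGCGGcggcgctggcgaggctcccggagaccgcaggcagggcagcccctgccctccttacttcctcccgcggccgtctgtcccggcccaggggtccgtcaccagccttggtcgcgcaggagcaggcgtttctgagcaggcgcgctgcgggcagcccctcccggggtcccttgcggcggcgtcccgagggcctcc
The GC content of these windows was 85.2% (SSH1), 75.6% (B4GALT5) and 76.4% (REXO1), and the median over all 35116 windows in the table was 58.0%. Over all 12 windows of the genes it ran from 44.4%, in a window of PIK3CD, to 85.2%. A GC box on either strand occurred in 8 of the 12 windows, from 7 genes, and in 42.6% of all windows. CCAAT or its reverse complement ATTGG occurred in 1 of the 12 and in 32.0% of all, TATAAA or TTTATA in 0 of the 12 and in 10.7% of all, and TTTTT or AAAAA in 3 of the 12 and in 36.6% of all. These matches describe letters in a window, and the windows were not linked to peaks, whose coordinates are of another build.

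Peaks on the 8 genes nearly vanished from the lists of D and B. Together the genes had 5 and 6 peaks in the lists of D and 5 and 3 in those of B, against 74 and 77 in those of C and 68 and 66 in those of A. As a share of all peaks of a list, this was 0.0251% and 0.0286% in D and 0.0246% and 0.0142% in B, against 0.306% and 0.307% in C and 0.309% and 0.299% in A. In each of the 8 genes every list of B and D held fewer peaks than every list of A and C. The rule used this contrast, so nothing is read from that count. For orientation, the same held for 460 of 2532 strand-specific 100 kb tiles with a mean of at least 3 peaks (18.2%).

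**Figure D1:**
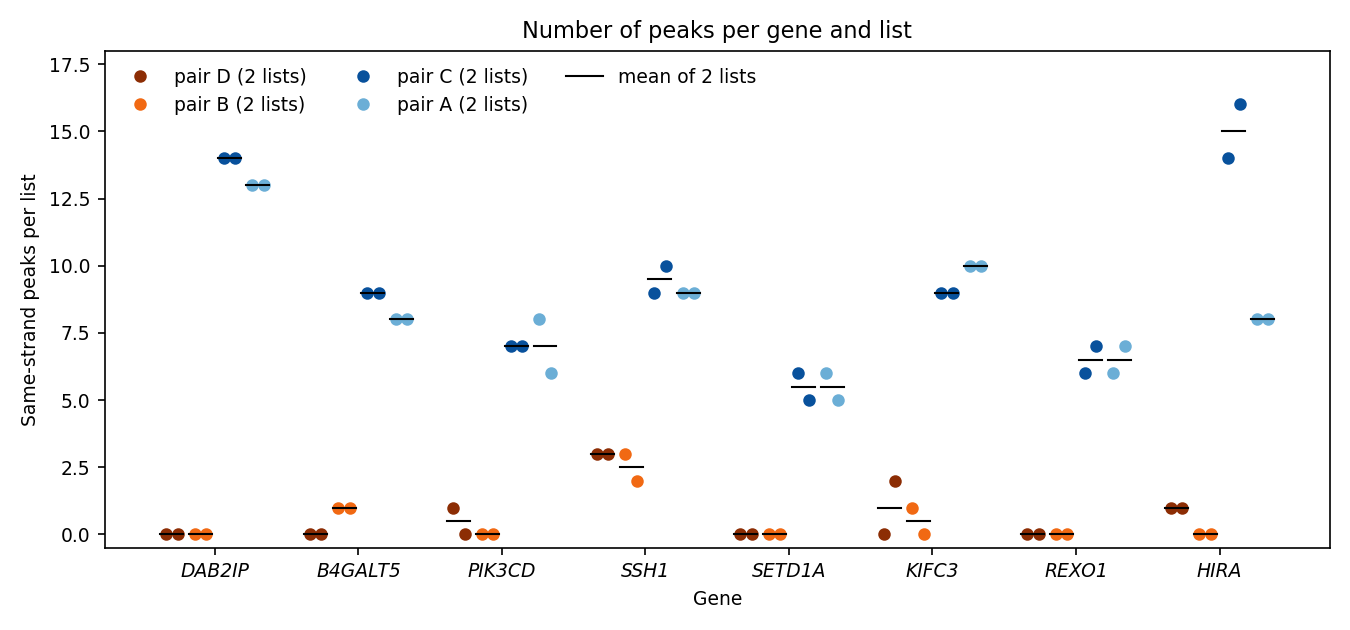
Number of same-strand peaks (vertical axis) for each gene (horizontal axis). Each point is 1 list and each bar the mean of 2 lists, with pairs D, B, C and A from left to right. No list of D or B holds more than 3 peaks on any gene, and no list of C or A fewer than 5.

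Among the signalling genes, DAB2IP had 0 peaks in all 4 lists of D and B, against 14 and 14 in C and 13 and 13 in A. The peaks covered 6131 and 6083 bp in C and 5570 and 5185 bp in A. PIK3CD had 1 and 0 peaks in D and 0 and 0 in B, against 7 and 7 in C and 8 and 6 in A. The single PIK3CD peak, in list D1, was the 5′-most of its regions, at 9770482 to 9770654, and had a score of 21.2, at percentile 10.4 of that list. The score is the authors' value per peak and is used here as a rank within 1 list. The exception is the alternative with a score of at least 50, which applies the same cut to every list.

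SSH1 kept the most peaks of the 8 genes. It had 3 and 3 in D and 3 and 2 in B, against 9 and 10 in C and 9 and 9 in A. Covered length showed the gap more plainly, with 301 and 282 bp in D and 301 and 197 bp in B, against 8338 and 8404 bp in C and 8206 and 8257 bp in A. The peaks that stayed were the 3 regions nearest the 5′ end. The first, at 109251204 to 109251359 (156 bp), reached the 5′ end of the span and was in all 8 lists. Its score stood at percentiles 76.4 and 78.5 in D and 65.6 and 59.7 in B, against 91.4 and 90.8 in C and 95.3 and 94.8 in A. The next, at 109246414 to 109246454, was 41 bp wide and also in all 8 lists. The third, at 109217034 to 109217137, was in every list except B2.

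The other 7 regions of SSH1, all 3′ of these, had no peak in any list of D or B. They included the widest region of the 8 genes, at 109176466 to 109183020 (6555 bp), which ended exactly at the 3′ end of the span. It stood at percentiles 95.8 and 95.5 of the lists of C and at 86.4 and 86.95 of those of A. RefSeq (GRCh38.p14) places the microRNA gene MIR619, the snoRNA gene LOC124900333 and the lncRNA LOC101929204 within SSH1. The table also has other genes that overlap DAB2IP, PIK3CD, KIFC3, REXO1 and HIRA, and peaks of a gene and of same-strand genes overlapping it cannot be told apart here.

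Of the chromatin genes, SETD1A had 0 peaks in all lists of D and B, against 6 and 5 in C and 6 and 5 in A. HIRA had 1 and 1 in D and 0 and 0 in B, against 14 and 16 in C and 8 and 8 in A. The HIRA region left in D was the 3′-most, at 19318221 to 19319079 (859 bp). It stood at percentiles 39.8 and 46.5 of the lists of D, against 91.4 and 89.35 in C and 86.3 and 84.7 in A. SSH1 thus kept its 5′ regions and HIRA its 3′-most.

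B4GALT5 had 0 and 0 peaks in D and 1 and 1 in B, against 9 and 9 in C and 8 and 8 in A. The peak in B was the first region, at 48330113 to 48330421 (309 bp), which reached the 5′ end of the span. It stood at percentiles 13.1 and 22.2 of the lists of B. KIFC3 had 0 and 2 peaks in D and 1 and 0 in B, against 9 and 9 in C and 10 and 10 in A. Its region at 57828909 to 57829053 was found in 1 list of D and 1 of B, and that at 57804439 to 57804612 in 1 list of D. REXO1 had 0 peaks in all lists of D and B, against 6 and 7 in C and 6 and 7 in A. Only DAB2IP, SETD1A and REXO1 among the 8 thus had no peak in any list of B or D.

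**Figure D2:**
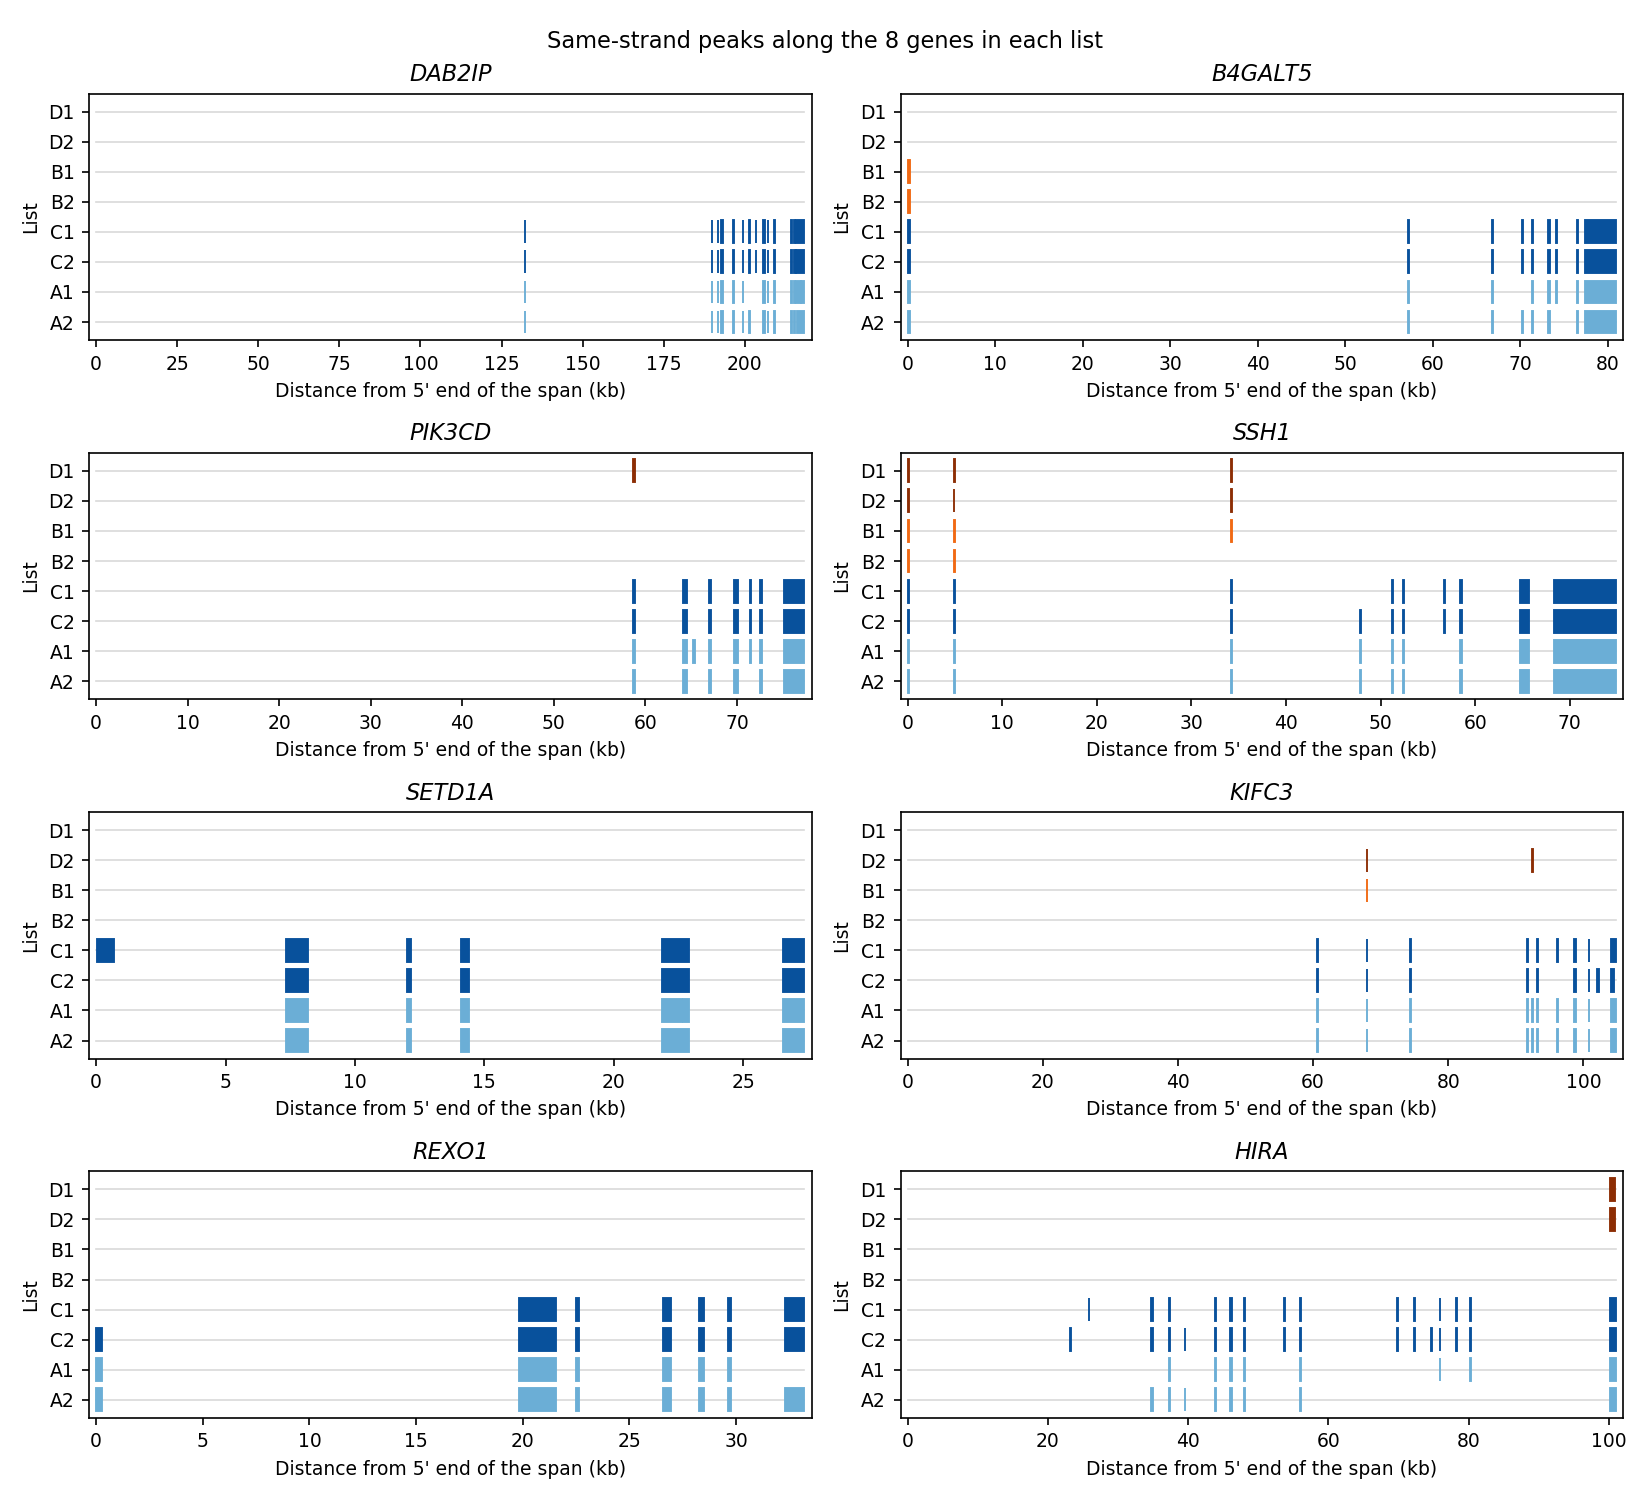
Same-strand peaks along each gene, with distance from the 5′ end of the span in kb (horizontal axis) and 1 row per list, in the order D1, D2, B1, B2, C1, C2, A1, A2 from the top. Boxes are peaks, with an outline that widens the narrowest ones. SSH1 retains its 3 regions nearest the 5′ end in D, HIRA its 3′-most region in D, and B4GALT5 its first region in B.

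Counted by region, 65 of the 71 regions that both lists of C held were lost in D, meaning that neither list of D had a peak there (91.5%). The percentage over all regions of the series was 25.3%. In B against A, 56 of 61 were lost (91.8%), where all regions gave 19.1%. No region of the 8 genes was gained in either comparison, of 4 held by both lists of D and 3 held by both of B, and all regions gave 13.3% in D against C and 17.1% in B against A. Without list D1, 1 of 6 regions was gained in D against C. Of 57 regions in all 4 lists of A and C, 50 had no peak in any list of B and D (87.7%, and 11.4% over all regions). These 50 were 12 in DAB2IP, 7 in KIFC3, 6 in B4GALT5 and 5 in each of PIK3CD, SSH1, SETD1A, REXO1 and HIRA. Only 2 of the 82 regions, both in SSH1, were in all 8 lists. These shares restate the rule and are no support for it.

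**Figure D3:**
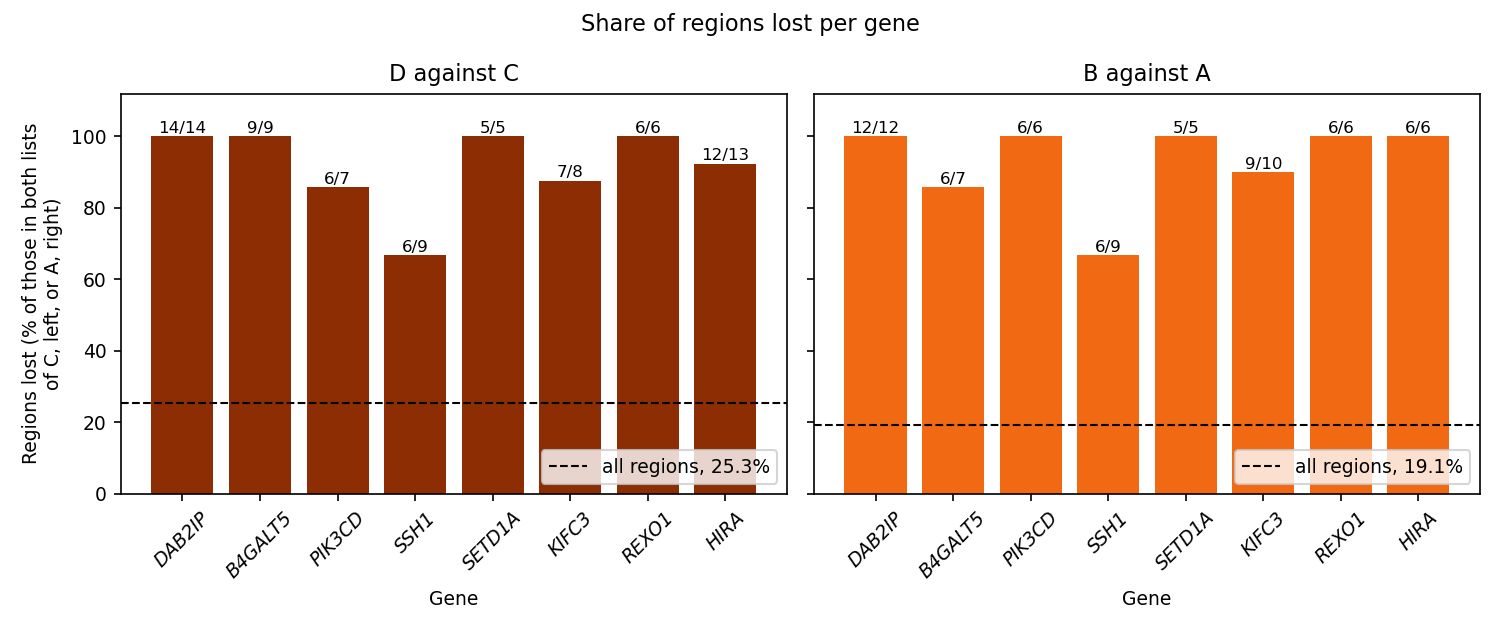
Percentage of regions lost per gene (vertical axis), of those in both lists of C (left) or of A (right), with the counts above the bars. The dashed line gives the percentage over all regions, 25.3% for D against C and 19.1% for B against A. SSH1 has the lowest share in both comparisons, 6 of 9.

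The lists of D and B were also shorter, with 19953 to 21160 peaks, against 21979 to 25111 in C and A. With every list cut to its 19953 best-scoring peaks, 58 of 64 regions of the 8 genes were lost in D against C (90.6%, all regions 20.5%) and 48 of 53 in B against A (90.6%, all regions 17.7%). A peak that is absent from a list shows that the caller reported none there, and read depth is unknown. In bulk RNA, less RNA per cell and fewer cells that hold it cannot be told apart, nor can a lower RNA level from less binding.

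The lost regions lay next to each other. In D against C, DAB2IP had an unbroken run of 14 lost regions, HIRA of 12, B4GALT5 of 9, PIK3CD, SSH1, KIFC3 and REXO1 of 6 each and SETD1A of 5. A run here joined lost regions on a strand that were at most 100 kb apart, with no region between them that both lists of C held and D did not lose. Over the genome there were 2946 runs, with a median of 1 region and a longest of 17, and 167 (5.67%) had 5 or more. In B against A, 58 of 2320 runs (2.5%) had 5 or more, 8 of them on these genes. The runs of PIK3CD, REXO1 and SETD1A in that comparison each held 1 region beyond the gene. The other 5 held members only. The genes were chosen for such neighbouring losses, so these runs restate the rule and are no support for it.

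Most regions of the 8 genes sat toward the 3′ end. Of 82 regions, 66 had their midpoint past 50% of the span, counted from the 5′ end, and 50 (61.0%) past 75%. Such shares were not computed for other genes, so this is not read as a trait of these 8. All 14 regions of DAB2IP lay past 50% and 13 past 75%, and the first began 132206 bp from the 5′ end. PIK3CD had all 8 regions past 75%, and KIFC3 8 of 11. HIRA had 8 regions before and 9 past the middle of its span, and SETD1A 3 and 3. In all 8 genes the last region ended within 40 bp of the 3′ end of the span, at a distance of 0 to 21 bp. In 4 genes (B4GALT5, SSH1, REXO1 and SETD1A) the first region began within 40 bp of the 5′ end.

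Regions were narrow stretches parted by long gaps. The joined width was 2.31% of the span in KIFC3, 2.83% in DAB2IP and 3.12% in HIRA, and up to 14.1% in SETD1A. The median gap between neighbouring regions ran from 1585 bp (PIK3CD) to 4129 bp (SSH1). The median region was 163 bp wide, and 180 bp over all regions of the series, while 6 of 82 (7.32%) were over 1000 bp, against 8.58% of all regions. The widest region of a gene was its 3′-most in 6 genes, with 6555 bp in SSH1, 3514 bp in B4GALT5, 2715 bp in DAB2IP, 2206 bp in PIK3CD, 859 bp in HIRA and 693 bp in KIFC3. In SETD1A and REXO1 it lay further inside, with 1050 and 1754 bp. All 4 lists of A and C had a peak in each of these widest regions, and only that of HIRA had one in B or D.

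The peaks of these genes were placed alike in different lists. Where both lists had 1 peak in a region, both ends were identical in 65 of 71 regions between the lists of C and in 54 of 59 between those of A (91.5% each). Between C1 and A1 this held for 54 of 60 regions (90%), and between C2 and A2 for 58 of 64 (90.6%). The share of identical ends over all regions was not computed, so this is not read as a trait of these genes. Of the regions of the genes found in either list of a pair, both lists held 4 of 7 in D (a share of 0.571) and 3 of 5 in B (0.6), against 71 of 80 in C (0.887) and 61 of 71 in A (0.859). Over all regions of the series the share was 0.735 in D, 0.743 in B, 0.740 in C and 0.729 in A. The genes were above the share of all regions in C and A and below it, on few regions, in D and B. They were chosen on peaks present in A and C and missing in B and D, so nothing is read from this.

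By score the lost regions stood near the middle of the lists of C and below the middle of those of A. In D against C, the 65 lost regions of the genes had a median percentile of 49.0 in the lists of C, and 34.1 was the median of all 5295 lost regions. In B against A, the 56 had a median of 34.4 in the lists of A, and all 3544 lost regions 29.8. Whether lost or kept, the regions of the genes held by both lists of a pair had a median percentile of 51.2 in C and 35.9 in A, and all regions of the series so held 55.3 and 55.6. Of the 65, 27 (41.5%) scored above the median of both lists of C, and of the 56, 12 (21.4%) above that of both lists of A. The corresponding shares of all lost regions were 23.8% and 16.4%. The best-scoring regions lost in both comparisons included, besides the 3′ region of SSH1, the 3′ region of B4GALT5 at 48249483 to 48252996. Its poorest percentile among the lists of A and C was 72.1. In KIFC3 it was the region at 57805110 to 57805349 (240 bp, poorest percentile 68.6). In SETD1A it was at 30975933 to 30976782 (850 bp, 65.3) and in PIK3CD at 9781502 to 9781918 (417 bp, 62.7). The best lost region was at 19373044 to 19373259 in HIRA (216 bp, 56.8), at 124522164 to 124522718 in DAB2IP (555 bp, 56.8) and at 1821518 to 1821877 in REXO1 (360 bp, 41.3).

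Most peaks next to the genes were kept, as were most regions of the series. Within 100 kb of either end on the same strand, outside the spans, 3 of 32 regions were lost in D against C (9.38%) and 6 of 34 in B against A (17.6%), which were below the 25.3% and 19.1% of all regions. PIK3CD had 10 and 14 such flanking peaks in D and 10 and 8 in B, against 15 and 17 in C and 16 and 14 in A. REXO1 had 8 and 7 in D and 7 and 5 in B, against 7 and 7 in C and 8 and 8 in A. HIRA had 6 and 7 in D and 7 and 9 in B, against 6 and 7 in C and 8 and 8 in A. The groups B with D and A with C met or overlapped in each of these genes and in SETD1A, SSH1 had 1 flanking peak in every list, and DAB2IP, B4GALT5 and KIFC3 had none. No list had a peak on the other strand inside any of the 8 spans. The spans were chosen for lost peaks and the flanks were not, so a difference between genes and flanks was favoured in advance. That difference was not tested.

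The tile that holds most peaks of DAB2IP had one of the largest drops in the genome. Its mean fell by 12.5 peaks in B and D relative to A and C, which gave it rank 3 of 2532 tiles, tied with 1 other. The tile of HIRA with its 3′ part had rank 8, that of B4GALT5 rank 37, REXO1 rank 43, SETD1A rank 46, PIK3CD rank 51, KIFC3 rank 95 and the 3′ part of SSH1 rank 165. The tile with the 5′ part of SSH1 had rank 457. The next tile reaches over the 5′ end of HIRA but holds no peak of the gene, whose 5′-most region ended at 19396116, before that tile begins. Its peaks are flanking ones, with a mean of 7.25 in B and D and 7.25 in A and C. The spans of DAB2IP, B4GALT5 and KIFC3 also reach into tiles with a mean under 3 peaks, which have no rank. The ranked tile of KIFC3 thus leaves out its regions nearest the 3′ end, from 57792129 to 57798301. The median change over all tiles was 0.0, with 1258 tiles down and 879 up. The genes were chosen on the loss in B and D, so the ranks of their tiles restate the rule and are no support for it. The ranked tiles of DAB2IP and B4GALT5 had a mean of 0.0 peaks in B and D, so they passed the filter through A and C only.

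Outside the 8 genes, the largest drop was in the tile at 38500001 to 38600000 of chromosome 21 (plus strand), with 1 and 2 peaks in D and 3 and 2 in B, against 20 and 21 in C and 16 and 16 in A. The next, on the minus strand of chromosome 19 at 5200001 to 5300000, had 3 and 4 in D and 3 and 2 in B, against 18 and 19 in C and 17 and 15 in A. A tile on the minus strand of chromosome 12 at 124800001 to 124900000 had 3 and 4 in D and 2 and 8 in B, against 19 and 18 in C and 15 and 15 in A. Of the 10 largest drops outside the genes, 3 tiles had no peak in at least 1 list of D or B. The emptiest, 126700001 to 126800000 of chromosome 3 (plus strand), had 0 and 0 in D and 1 and 0 in B, against 11 and 11 in C and 9 and 11 in A. Near-empty tiles in D and B were thus also found outside the 8 genes.

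**Figure D4:**
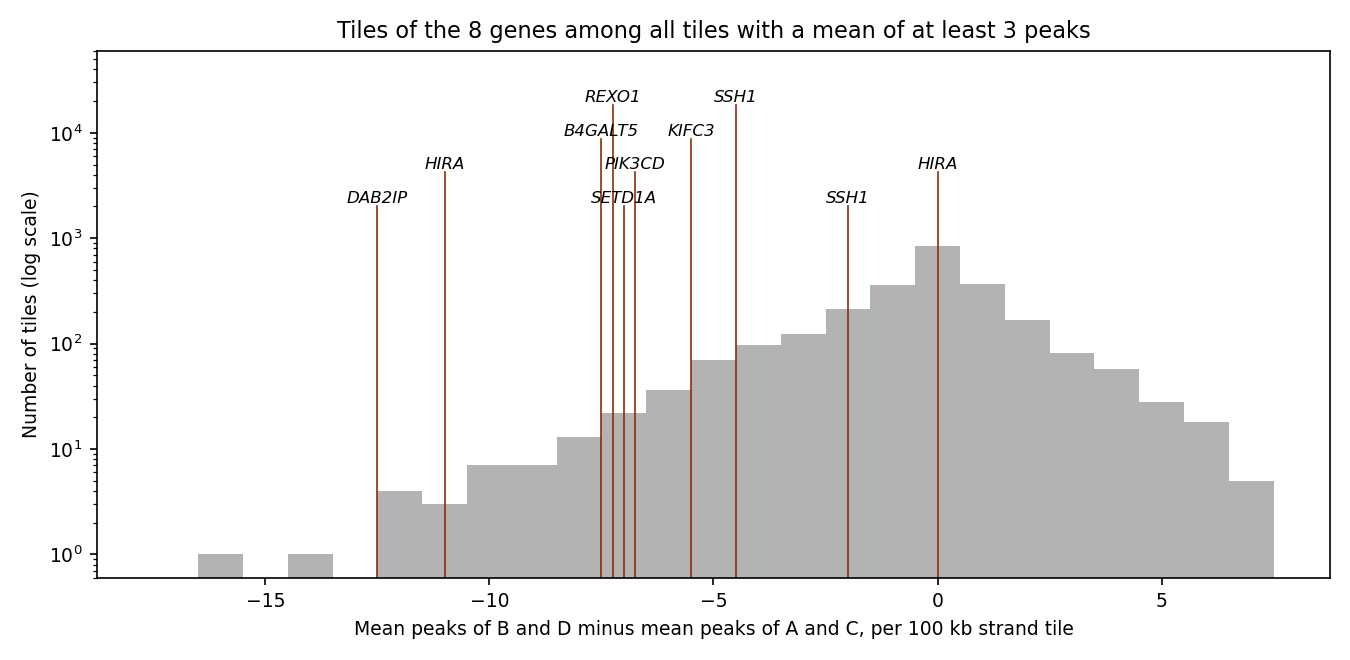
Number of 100 kb strand-specific tiles (vertical axis, log scale) by the mean number of peaks in B and D minus that in A and C (horizontal axis), for the 2532 tiles with a mean of at least 3 peaks. Vertical lines mark the tiles of the 8 genes that pass this filter, 2 each for SSH1 and HIRA. The spans of DAB2IP, B4GALT5 and KIFC3 also reach into tiles below the filter, which are not shown. The tile of DAB2IP stands at -12.5, and the tile at 0.0 covers the 5′ end of HIRA but none of its peaks. The genes were chosen on this contrast, so the place of their tiles restates the rule.

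The rule did not use the comparison of pairs C and D with A and B, that is, AS with no AS if the record holds, and K512R with WT if the names hold. An exact 2-sided permutation test of 4 lists against 4, with Benjamini-Hochberg adjustment over 2532 tiles and the 8 genes, called none of these genes. The smallest p this design can give is 0.0286. After adjustment over 2540 tests, such a p passes 0.05 only if a large share of all tests reach it. The adjusted result was therefore nearly fixed in advance and decides nothing for these genes. Over all 2540 tests 0 passed after adjustment (0%) and 18 had an unadjusted p under 0.05 (0.709%). HIRA had the largest difference, with 8.0 ± 8.12 peaks in C and D and 4.0 ± 4.62 in A and B (SD, n = 4 each, exact permutation p = 0.400, adjusted p = 1.0). With permutation only within IP and within input, as the record has them, HIRA reached the smallest p possible, 0.0556, which lies above 0.05. For the other 7 genes the mean differed by -0.25 to 0.50 peaks, with exact unadjusted p of 0.657 to 1.0. Each group of 4 joins a pair with many peaks and a pair with few, so the spread within groups is wide. Because the genes were chosen on that contrast, none of the 8 could reach 0.0286 in this test.

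Set pair against pair, C held more peaks than A in both lists for HIRA, DAB2IP and B4GALT5 and fewer for KIFC3. Over all tiles, both lists of C were above both of A in 16.6% and below in 4.19%. In HIRA, 4 of the 13 regions held by both lists of C had no peak in A, at 19365392 to 19365589, 19349250 to 19349454, 19346859 to 19347007 and 19340879 to 19341042. They lay between 53.2% and 77.5% of the way from the 5′ end and were 149 to 205 bp wide. With 1 region in DAB2IP and 1 in SSH1, 6 of 71 regions of the genes were gained in C against A (8.45%, and 8.75% over all regions), and 1 of 61, in KIFC3, was lost (1.64%, and 3.23% over all). Leaving out 1 list moved these counts, with 10 gained without A1 or without A2, 2 lost without C1 or A2 and 3 lost without C2. The genes were chosen on peaks present in both A and C, so a low lost share here was favoured in advance. Among peaks with a score of at least 50, 14 of 57 were gained (24.6%, all regions 8.0%). A region gained at this cut can still have a peak in A with a score under 50. The DAB2IP region at 124519292 to 124519445 had scores of 23.96 and 34.87 in A, against 75.78 and 91.31 in C. The lists of C were also the longest, with 24183 and 25111 peaks against 21979 and 22083 in A. At equal list length, 8 of 64 were gained (12.5%, all regions 5.79%).

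In D against B few regions of the genes were present at all, which the choice of genes favoured in advance. D held more peaks than B in both lists for HIRA and fewer for B4GALT5, where over all tiles both lists of D were above both of B in 9.12% and below in 12.4%. Of 4 regions in both lists of D, 1 was gained, the 3′ region of HIRA, and of 3 in both lists of B, 1 was lost, the 5′ region of B4GALT5. Over all regions the gained share was 6.3% and the lost share 7.86%. In SSH1 the 2 regions held by both lists of B were also held by both lists of D. With 2 lists on each side no exact test can reach 0.05, so these values have no p.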

How the data were processed

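Per the labels' protocols, ribosomal RNA was removed from Myc-immunoprecipitated and input RNA of H1299 cells. Tools named in the submitters' processing notes are cutadapt 1.9.3 and HISAT2 2.0.4, with build hg19 and no settings. For 8 of the 16 samples a peak list deposited by the authors was used, with a score per peak. Peak names begin with MACS, whose version, control and threshold are not given in the sources used. The score, of unstated unit, ran from 13.02 to 3233.06.

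Samples were grouped by title. Peaks of all lists on a strand were joined at 1 bp overlap, and coordinates are counted from 1. A lost region was found in 2 of 2 lists from the second-named pair and in none from the first, and a gained region the opposite. The genes, comparisons and tests were chosen with earlier results of these data known. All 8 genes are named, single regions by best score percentile, and tiles by the largest drop. Alternatives were equal list length, a score of at least 50, gaps of 100 bp joined, peaks wholly inside the span, other permutations and each list left out. The lost and gained rule and the permutation test were run on simulated data with changes put in. This checks the calculation only and says nothing about these genes. The lists give no read depth, so the number of lists limits precision. Python 3.11.15, numpy 2.4.6, pandas 2.3.3 and scipy 1.17.1 were used.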

Additional observations from a re-analysis of the deposited data

Results flagged for a closer look

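The B4GALT5 counts differed in direction between the comparisons that the choice of genes did not use. In C against A the mean was higher by 1.0 peak and the covered length by 124 bp, while in D against B the mean fell by 1.0 peak and the covered length fell by 309 bp. Each list of C was above each list of A, and each list of D below each list of B. The difference between these changes was not tested.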

How the results depend on the processing

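The mean number of peaks over the 8 genes differed by -66.5 between B with D and A with C, by -60.2 at equal list length and by -50.5 with a score of at least 50, and leaving out 1 list gave -68.2 to -64.6. The sign of this difference was negative in each gene under all 88 combinations of gene and alternative. That sign was set by the choice of genes and is no support for it. With a score of at least 50, the lost regions numbered 30 in B against A, of 32, and 0 in D against B, while gained ones numbered 14 in C against A and 2 in D against B. A region lost or gained at this cut can still have a peak with a lower score in the other pair. Leaving out 1 list gave 0 to 1 gained in D against C, 1 to 3 lost and 8 to 10 gained in C against A, and 1 to 2 gained in D against B. Without C1 or A2, 2 regions were lost in C against A, and 3 without C2; 10 were gained without A1 or without A2. The single gain in D against C came without D1, and 2 gains in D against B without D1, D2 or B1. The causes of these changes were not tested. Fewer peaks enter at a higher score, and leaving out a list leaves fewer lists per pair.

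For C and D against A and B, no alternative in which all genes and tiles were adjusted together passed 0.05. Over so many tests an adjusted p could hardly do so, and this decides nothing. The restricted permutations cannot pass 0.05: the smallest exact p is 0.0556 within IP and within input and 0.125 with the replicate number as a block. HIRA stood at that smallest p in both, and the other 7 genes had an exact p of 0.333 to 1.0. With the replicate block the difference for HIRA stayed 4.0 peaks, for DAB2IP and SSH1 0.5, for PIK3CD 0.25, for KIFC3 -0.25 and for the others 0.0. Samples share only a number: the correlation of replicate differences between pairs over tiles was 0.01 to 0.07. Depth is unknown, and absence of a peak is not absence of RNA.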
